A study of Mus musculus with 12 samples.

Results

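The 8 libraries of the C3 and S1pr1 knockouts were pooled and compared with the 4 wild-type (WT) libraries of the same series, which holds 12 libraries of whole-lung RNA. The knockout libraries were chosen by their labels, 4 of C3 KO and 4 of S1pr1 KO. The title of the series asks how conditional loss of C3 or of S1pr1 bears on lung metastasis in MMTV-PyMT mice, in which the mouse mammary tumour virus (MMTV) promoter drives an oncogene, the polyoma middle T antigen, mainly in mammary epithelium. By the series' design text WT was MMTV-Cre; MMTV-PyMT, the C3 knockout was MMTV-Cre;C3Tdt:MMTV-PyMT and the S1pr1 knockout was MMTV-Cre;S1pr1fl/fl; MMTV-PyMT, with lungs taken at 4.5 months and kept in RNAlater. The strain label of the WT samples names MMTV-PyMT without the Cre, so the labels and the design text differ on whether the controls carried it. MMTV-PyMT was common to all 3 groups, and the Cre of the knockouts was driven by the MMTV promoter. Both knockouts were set against the same 4 WT libraries. Anything particular to those libraries, the Cre included if WT lacked it, enters both comparisons and cannot be told apart from what the knockouts share. Whether the samples of a group are separate animals is not said in the labels, and the p-values measure only the spread between these samples.

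C3 is the central protein of the complement cascade, whose cleavage products coat targets and act on the receptors C3ar1 and, further down the cascade, C5ar1. S1pr1 is a receptor for the lipid sphingosine-1-phosphate; it is abundant in lung endothelium, where it supports the vessel barrier, and it guides the exit of lymphocytes from lymphoid organs. The comparison asks which transcripts moved the same way when either gene was targeted.

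Library totals ranged from 32274797 to 53063470 counts, and between 26691 and 28277 genes had a count in a library. Lung markers were abundant in all 12 libraries: surfactant protein C (Sftpc) lay between 9411 and 12828 CPM (counts of a gene per mega-count of the scaled library total) and the club cell gene Scgb1a1 between 12582 and 27774 CPM. Transcripts of milk proteins were near 0, with Csn2 at 0 to 0.916 CPM and Wap at 0 to 0.199 CPM. The targeted genes passed neither the pooled test nor the comparison of their own knockout with WT. In C3 KO alone the log2 change of C3 was -0.25 (SE 0.30, edgeR adjusted p = 0.813). In S1pr1 KO alone that of S1pr1 was -0.85 (SE 0.29, edgeR adjusted p = 0.153). C3 (chromosome 17) was at 1024, 787, 903 and 799 CPM in WT, at 475, 465, 601 and 1416 CPM in C3 KO and at 772, 940, 851 and 713 CPM in S1pr1 KO, a pooled log2 change of -0.17 (SE 0.25, edgeR adjusted p = 0.786). S1pr1 (chromosome 3) was at 295, 491, 319 and 330 CPM in WT, at 353, 256, 310 and 283 CPM in C3 KO and at 132, 366, 142 and 154 CPM in S1pr1 KO, a pooled log2 change of -0.55 (SE 0.25, edgeR adjusted p = 0.306). The library labelled C3 KO 4 thus had the highest C3 level of the series and the library labelled S1pr1 KO 2 lay within the WT range for S1pr1. Both are included as labelled in every direction given below. With both left out, the pooled log2 change of S1pr1 was -0.78 and passed (edgeR adjusted p = 0.0476), and that of C3 was -0.47 (edgeR adjusted p = 0.0686). C3 was at -0.44 (edgeR adjusted p = 0.0928) when the library labelled C3 KO 4 alone was dropped, and S1pr1 was at -0.36 without WT 2. The 2 libraries were picked by the levels of these genes, so these values are not independent of the choice.

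Across 20229 genes tested, 18 differed between the pooled knockouts and WT at an edgeR adjusted p under 0.05 (quasi-likelihood test with Benjamini-Hochberg adjustment), which is 0.089% of the genes. Of these 9 were higher and 9 lower in the knockouts. Protein-coding genes made up 12 of the 18, with 6 higher and 6 lower. The other 6 were 4 pseudogenes, a lncRNA and a transcript still to be experimentally checked. At an unadjusted p under 0.05 there were 3154 genes. Log2 fold changes of the 18 ran in size from 0.30 to 4.05, so the set held small shifts of abundant transcripts as well as large shifts of scarce ones. The number of calls moved with the libraries and the tool: leaving out 1 library gave between 2 (when WT 4 was dropped) and 104 (when the library labelled C3 KO 4 was dropped), leaving out both libraries that stood apart in the targeted genes gave 93, limma voom with quality weights gave 121 and DESeq2 gave 710.

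In each knockout alone, all 18 went the same way as in the pool, each with an unadjusted p under 0.05 in C3 KO and in S1pr1 KO. This was set partly by the choice itself, since a gene called in the pool must move in at least part of it, and the comparisons share their WT libraries. At the stricter adjusted threshold, all 18 also passed in S1pr1 KO alone, where 274 genes were called (1.35% of those tested), and 2 passed in C3 KO alone, where 2 were called (0.00989%). Those 2 were mt-Nd3 and Gm28438. Their transcripts are nearly the same and reads of either can be assigned to the other, so these 2 calls may not be independent. The change was larger in S1pr1 KO for 14 of the 18 and larger in C3 KO for 4. The difference between the knockouts passed for 0 of the 18 in edgeR (lowest adjusted p = 0.258, for Wdfy1), and 5 had an unadjusted p under 0.05 for it: Wdfy1, Dnase2a, H2-T24, Rps7-ps3 and Gramd1a. Over all genes the difference between the knockouts passed for 0% (0 of 20229, with 2437 at an unadjusted p under 0.05), while limma voom called 36 and DESeq2 317.

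**Figure D1:**
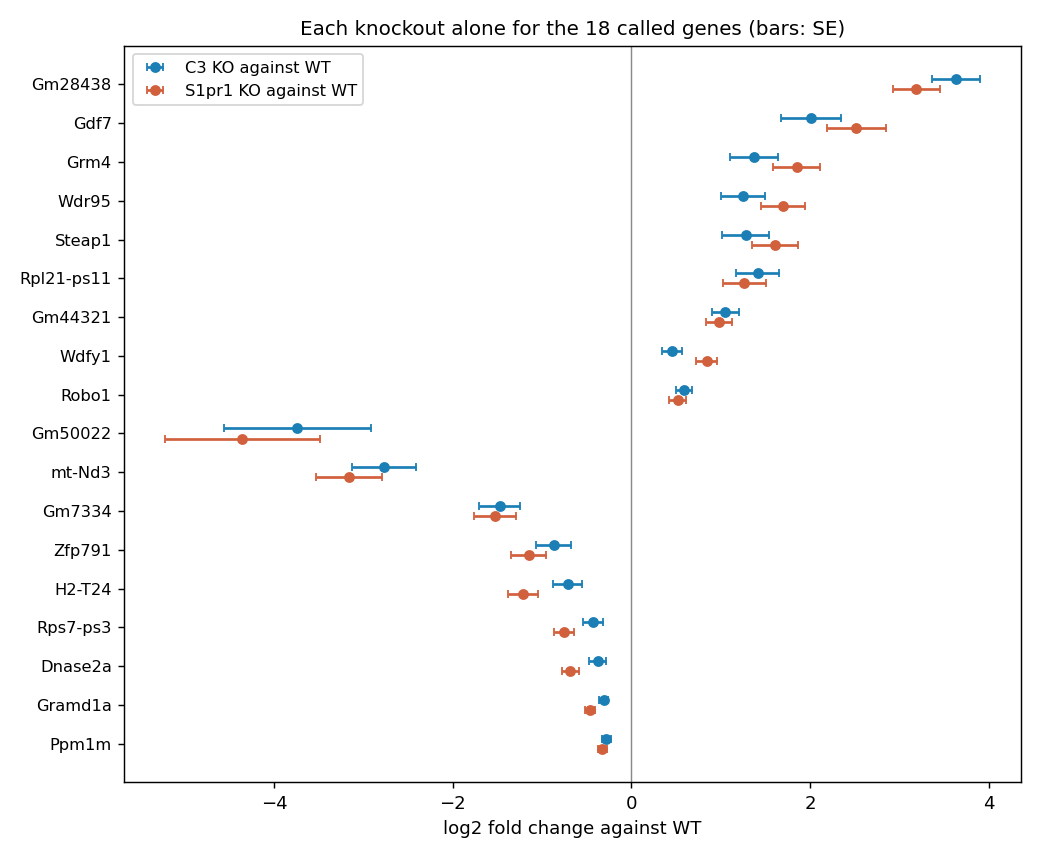
Log2 fold change against WT of the 18 called genes (rows) in C3 KO and in S1pr1 KO, with bars of 1 SE. Both points of every gene lie on the same side of 0, from 3.63 and 3.19 for Gm28438 to -3.74 and -4.36 for Gm50022.

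Leaving out single libraries kept the direction of all 18 but not their calls. Of the 18, 5 still passed without WT 1, 3 without WT 2, 3 without WT 3 and 2 without WT 4. In C3 KO, 10 still passed without library 1, 14 without library 2, 16 without library 3 and all 18 when the library labelled C3 KO 4 was dropped. Of S1pr1 KO, 9 still passed without library 1, 8 without the library labelled S1pr1 KO 2, 7 without library 3 and 3 without library 4. Gm28438 and mt-Nd3, whose transcripts are nearly the same, passed in all 12 of these fits. Gramd1a passed in 10, Gm7334 and Gdf7 in 8, Gm44321 in 7, H2-T24 in 6 and Grm4 in 5. The other 10 passed in 2 to 4 of the 12.

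Counted with no model, 393 genes (1.94% of those tested) had all 8 knockout libraries on 1 side of all 4 WT libraries. Of these, 186 lay above and 207 below. Of the 18 called genes 17 were among them, and Dnase2a was the exception. This was largely set by the choice, since the 18 were called from the same libraries.

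The mitochondrial gene mt-Nd3 and the pseudogene Gm28438 had the lowest p-values, and they moved in opposite directions. mt-Nd3 encodes a subunit of complex I of the respiratory chain and lies on the mitochondrial genome (ENSMUSG00000064360, GRCm39 chromosome MT, 9459 to 9806, + strand). Gm28438 is annotated as an unprocessed pseudogene in a nuclear stretch of mitochondrial gene copies (ENSMUSG00000101939, GRCm39 chromosome 1, 24651856 to 24652200, - strand). Their sequences are shown because the transcripts are nearly the same. Over the 345 bases of Gm28438 they differ by 1 substitution, T3C, with the base of mt-Nd3 first and positions counted from 1 at the 5′ end of mt-Nd3, and mt-Nd3 runs on for 3 more bases at its 3′ end. The opening 60 bases of each are given 5′ to 3′ with the differing base in capitals, from the GENCODE vM21 transcripts of GRCm38 matched by gene ID.
mt-Nd3: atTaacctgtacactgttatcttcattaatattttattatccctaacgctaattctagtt
Gm28438: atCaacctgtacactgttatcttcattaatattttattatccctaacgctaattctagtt

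mt-Nd3 was at 5.36, 5.84, 5.94 and 7.49 CPM in WT, at 1.71, 0.644, 0.361 and 0.896 CPM in C3 KO and at 0.757, 0.869, 0.531 and 0.564 CPM in S1pr1 KO. All knockout libraries lay far below all WT libraries, and the pooled log2 fold change was -2.97 (SE 0.29, edgeR adjusted p = 0.00176). Gm28438 was at 0.679, 0.603, 0.615 and 0.905 CPM in WT, at 8.01, 8.11, 7.39 and 11.4 CPM in C3 KO and at 9.52, 6.38, 5.47 and 4.27 CPM in S1pr1 KO. It was above WT in all 8, with a log2 change of 3.41 (SE 0.25, edgeR adjusted p = 0.000171). Summed over the pair, the groups overlapped: 6.04 to 8.39 CPM in WT and 4.84 to 12.3 CPM in the knockouts. What differed was the split of the sum. Gm28438 took 9.36% to 11.2% of it in WT and 82.4% to 95.3% in the knockouts, with no library in between. Each share rested on 163 to 543 reads a library. Since the transcripts differ at 1 position, reads of either can be assigned to the other, and the change of each gene alone is uncertain.

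The neighbours of both genes did not show the same change. Among the 13 protein-coding mitochondrial genes, levels per kilobase fell into a high and a low set: 7 genes, mt-Co1 among them, had 739.8 to 4990 CPM per kb in every library, and 6 had 0.878 to 39 CPM per kb. mt-Nd3 was in the low set, together with mt-Co2, mt-Co3, mt-Atp6, mt-Atp8 and mt-Nd4l. Pooled log2 fold changes in the high set ran from 0.098 (mt-Cytb) to 0.20 (mt-Co1), and in the low set without mt-Nd3 from -0.81 (mt-Nd4l) to -0.41 (mt-Co2). None of these 12 passed, the lowest edgeR adjusted p being 0.170 for mt-Atp6. Of the 7 tested copies in the chromosome 1 stretch only Gm28438 passed. The other 6 ranged from -0.54 (Gm28661) to 0.22 (Gm10222). Over the 15 tested transcripts of the mitochondrially encoded list, mt-Nd3 included, the median log2 fold change was 0.098. The mean log2 CPM over the list was 6.91 to 7.30 in WT. It was 6.48 to 6.92 in C3 KO and 6.57 to 6.93 in S1pr1 KO, with most of these libraries below all WT libraries. The median and the mean thus differ in sign, and the mean takes in the falls of mt-Nd3 and the rest of the low set.

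**Figure D2:**
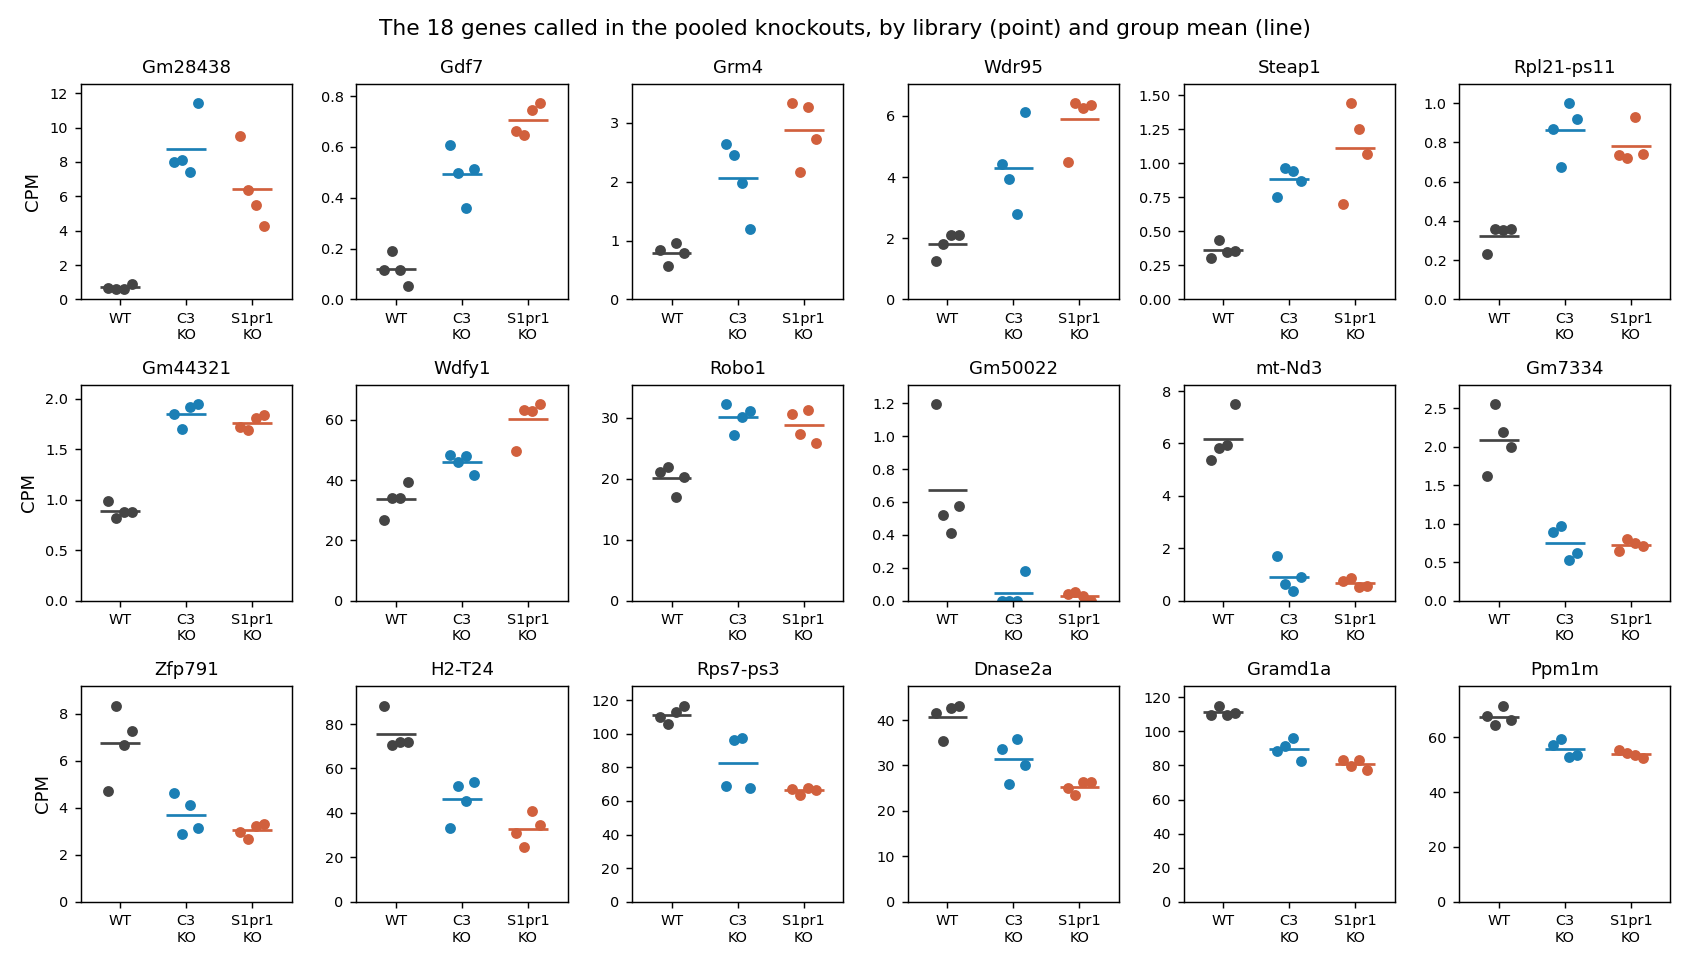
CPM (linear axes from 0) of the 18 called genes in each library (points) by group, with the group mean as a line, higher genes before lower ones. The 8 knockout points lie outside the WT range in 17 panels, and in the panel of Dnase2a the highest knockout library (35.8 CPM) lies above the lowest WT library (35.4 CPM).

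Of the protein-coding genes that fell, H2-T24 belongs to the nonclassical MHC class I genes of the mouse histocompatibility complex (GRCm39 chromosome 17, 36316587 to 36331452, - strand). It was at 88.3, 70.5, 71.9 and 72.1 CPM in WT, at 33.2, 52, 45.5 and 53.9 CPM in C3 KO and at 30.9, 24.5, 40.8 and 34.6 CPM in S1pr1 KO. All knockout libraries lay below all WT libraries, the S1pr1 KO mean (32.7 ± 6.82 CPM, SD, n = 4) lay below that of C3 KO (46.2 ± 9.35 CPM), and the pooled log2 fold change was -0.96 (SE 0.14, edgeR adjusted p = 0.0374). Its value was -0.71 in C3 KO and -1.21 in S1pr1 KO. Its most alike annotated transcript, H2-Q1, matched over 404 bases at 79.2% identity and was at -0.16 (edgeR adjusted p = 0.850). Other class I genes were lower without passing. H2-Q7 was at 72.7, 61, 36.5 and 67.8 CPM in WT and between 22.2 and 44.9 CPM in the knockouts (-0.91, SE 0.17, edgeR adjusted p = 0.0617). H2-Q6 was at -0.85 (SE 0.19, edgeR adjusted p = 0.0894). Reads of this family can be shared between its members.

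Gramd1a encodes an endoplasmic reticulum protein that moves cholesterol in from the plasma membrane (GRCm39 chromosome 7, 30829552 to 30855321, - strand). It showed a small shift with little spread: 110, 115, 110 and 111 CPM in WT, 88.5, 91.7, 96 and 82.8 CPM in C3 KO and 83.4, 79.6, 83 and 77.2 CPM in S1pr1 KO. The pooled log2 fold change was -0.39 (SE 0.046, edgeR adjusted p = 0.0118). Its relative Gramd1b was at -0.054 (edgeR adjusted p = 0.824).

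Ppm1m, a protein phosphatase of the PP2C family (GRCm39 chromosome 9, 106072146 to 106076945, - strand), had the smallest change of the 18. It was at 67.9, 64.4, 71.6 and 66.2 CPM in WT, at 57.1, 59.2, 52.8 and 53.6 CPM in C3 KO and at 55.5, 54.4, 53.5 and 52.5 CPM in S1pr1 KO. The lowest WT library stood above the highest knockout library, at a pooled log2 change of -0.30 (SE 0.046, edgeR adjusted p = 0.0457). C3 KO (-0.28) and S1pr1 KO (-0.32) were nearly equal.

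Dnase2a encodes the acid endonuclease of lysosomes that digests the DNA of engulfed cells (GRCm39 chromosome 8, 85635189 to 85649544, + strand). It was at 41.5, 35.4, 42.6 and 43.2 CPM in WT, at 33.6, 25.9, 35.8 and 30 CPM in C3 KO and at 25, 23.4, 26.5 and 26.4 CPM in S1pr1 KO. C3 KO 3 lay just above WT 2, whereas all S1pr1 KO libraries lay below WT. The pooled log2 fold change was -0.53 (SE 0.083, edgeR adjusted p = 0.047). Part of its transcript, 1341 bases, is the reverse complement of Mast1, which was at 3.55 CPM on average and at -0.29 (edgeR adjusted p = 0.337). The sources used here do not give whether counting used strand, and reads of these transcripts may not have been told apart.

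Zfp791, a zinc finger gene near Dnase2a (GRCm39 chromosome 8, 85835182 to 85849724, - strand), had 4.73, 8.34, 6.65 and 7.27 CPM in WT. The C3 KO libraries had 4.63, 2.87, 4.11 and 3.15 CPM and the S1pr1 KO libraries 2.95, 2.66, 3.21 and 3.32 CPM. WT 1 and C3 KO 1 nearly met, and the pooled log2 fold change was -1.01 (SE 0.16, edgeR adjusted p = 0.0493).

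Among the protein-coding genes that rose, Robo1 encodes a receptor for the Slit guidance proteins, known from axon pathfinding and from lung development (GRCm39 chromosome 16, 72105194 to 72842983, + strand). It was at 21.1, 21.9, 17 and 20.2 CPM in WT, at 32.2, 27.2, 30.2 and 31 CPM in C3 KO and at 30.6, 27.3, 31.2 and 25.9 CPM in S1pr1 KO. Both knockouts stood at about the same level above WT, with a pooled log2 change of 0.55 (SE 0.081, edgeR adjusted p = 0.0397). Its relative Robo2, whose transcript matched over 1259 bases at 70.4% identity, was at 0.53 (SE 0.11) and did not pass (edgeR adjusted p = 0.084).

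Wdfy1 encodes a phosphoinositide-binding protein of early endosomes, known as an adaptor in Toll-like receptor signalling (GRCm39 chromosome 1, 79679979 to 79753860, - strand). It was at 26.8, 33.9, 34 and 39.5 CPM in WT, at 48.3, 46, 48.1 and 41.5 CPM in C3 KO and at 49.5, 63.1, 62.9 and 65.1 CPM in S1pr1 KO. Means were 33.6 ± 5.21 CPM in WT, 46.0 ± 3.14 CPM in C3 KO and 60.2 ± 7.14 CPM in S1pr1 KO (SD, n = 4 each), without overlap between WT and either knockout, and the pooled log2 fold change was 0.65 (SE 0.10, edgeR adjusted p = 0.047). The difference between the knockouts, 0.39 (SE 0.11), did not pass (edgeR adjusted p = 0.258). Its relative Wdfy2 was at 0.0078 (edgeR adjusted p = 0.976).

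Grm4 encodes a metabotropic glutamate receptor that lowers cyclic AMP (GRCm39 chromosome 17, 27641361 to 27740377, - strand). It was scarce: 0.842, 0.576, 0.966 and 0.796 CPM in WT, 2.63, 2.46, 1.97 and 1.20 CPM in C3 KO and 3.33, 2.16, 3.27 and 2.73 CPM in S1pr1 KO. The library labelled C3 KO 4 was the knockout library nearest to WT, and the pooled log2 fold change was 1.61 (SE 0.24, edgeR adjusted p = 0.0442).

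Wdr95, a WD-repeat gene (GRCm39 chromosome 5, 149452144 to 149535359, + strand), was at 1.24, 1.81, 2.11 and 2.11 CPM in WT, at 4.42, 3.92, 2.78 and 6.12 CPM in C3 KO and at 4.51, 6.41, 6.27 and 6.35 CPM in S1pr1 KO. Here the library labelled C3 KO 4 was the highest of its group, and the pooled log2 fold change was 1.47 (SE 0.22, edgeR adjusted p = 0.045).

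Below a mean of 1 CPM, and so outside the rule by which genes were named, 2 more protein-coding genes rose. They are given because they complete the 18. Gdf7, a growth factor of the bone morphogenetic protein family, was at 0.117, 0.192, 0.117 and 0.0549 CPM in WT, at 0.607, 0.498, 0.361 and 0.512 CPM in C3 KO and at 0.663, 0.646, 0.744 and 0.772 CPM in S1pr1 KO (2.26, SE 0.30, edgeR adjusted p = 0.0219). Steap1, a metalloreductase-family membrane protein of epithelial cells, was at 0.304, 0.439, 0.351 and 0.357 CPM in WT, at 0.752, 0.966, 0.944 and 0.870 CPM in C3 KO and at 0.701, 1.44, 1.25 and 1.07 CPM in S1pr1 KO (1.44, SE 0.24, edgeR adjusted p = 0.0493). Both were separate from WT in all 8 libraries, at a level of few reads.

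The remaining non-coding calls were on transcripts that are scarce or have close copies. Gm7334, a processed pseudogene (GRCm39 chromosome 17, 51005716 to 51006471, + strand), was identical to the transcript of its parent Btg3, an antiproliferative gene, over its 756 bases. It was at 1.61, 2.55, 2.20 and 2.00 CPM in WT, at 0.896, 0.966, 0.528 and 0.614 CPM in C3 KO and at 0.644, 0.795, 0.744 and 0.712 CPM in S1pr1 KO (-1.50, SE 0.19, edgeR adjusted p = 0.0177). Btg3, at 71.8 CPM on average, was at -0.14 and did not pass (edgeR adjusted p = 0.295).

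Rps7-ps3, a transcribed pseudogene of the ribosomal protein gene Rps7 (GRCm39 chromosome X, 151692501 to 151693151, - strand), was abundant. It was at 110, 106, 113 and 117 CPM in WT, at 68.9, 96, 97.7 and 67.8 CPM in C3 KO and at 67.3, 63.4, 67.6 and 66.4 CPM in S1pr1 KO (-0.59, SE 0.094, edgeR adjusted p = 0.0478). In C3 KO the libraries split into a higher and a lower pair, while the S1pr1 KO libraries were close together. Rps7 matched it over 651 bases at 99.4% identity and was at 0.061 (edgeR adjusted p = 0.733).

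Rpl21-ps11 was scarce, at 0.234 to 0.357 CPM in WT and 0.673 to 1 CPM in the knockouts (1.34, SE 0.21, edgeR adjusted p = 0.0478), and 73 other annotated genes matched it over at least 90% of its length at 90% identity or more. Gm44321 had a tight spread, at 0.823 to 0.983 CPM in WT and 1.69 to 1.94 CPM in the knockouts (1.02, SE 0.13, edgeR adjusted p = 0.0201). The lncRNA Gm50022 had 51, 19, 14 and 21 reads in WT, 0, 0, 0 and 7 reads in C3 KO, the 7 in the library labelled C3 KO 4, and 2, 2, 1 and 0 reads in S1pr1 KO. Its fitted log2 change of -4.05 (SE 0.66, edgeR adjusted p = 0.0493) rests on 12 knockout reads in all and depends on the prior count of the fit.

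Just past the threshold, a further 254 of the 20229 genes tested had a pooled adjusted p between 0.05 and 0.10, 137 higher and 117 lower. Of these 218 had an unadjusted p under 0.05 the same way in each knockout and 36 did not. That too was set largely by the choice. The genes were picked by their pooled p, and both comparisons share the WT libraries. Gpihbp1, the endothelial protein that carries lipoprotein lipase to the capillary lumen, was at 185, 210, 230 and 182 CPM in WT, at 149, 156, 135 and 130 CPM in C3 KO and at 161, 128, 156 and 146 CPM in S1pr1 KO (-0.47, SE 0.080, edgeR adjusted p = 0.0548). All 8 knockout libraries were below all WT libraries, by nearly the same amount in C3 KO (-0.50) and S1pr1 KO (-0.45). The keratins Krt4 and Krt13, of stratified squamous epithelium, were also in this range of p (edgeR adjusted p = 0.0602 for both), at pooled values of -9.98 and -9.33, but those rest on WT 2. That library held 626 CPM of Krt4 and 632 CPM of Krt13 against 0.205 to 5.43 and 0.234 to 5.31 CPM in the other WT libraries. Without WT 2 the values were -3.65 and -3.03, but WT 1 (5.43 and 5.31 CPM) then stood above the rest. WT 3 and WT 4 were at 0.205 and 0.302 CPM of Krt4 and at 0.234 and 0.439 CPM of Krt13. The knockouts overlapped these, at 0 to 0.522 CPM of Krt4 and 0.111 to 0.386 CPM of Krt13.

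Genes of ribosomal proteins, a group chosen after the values were seen (protein-coding symbols Rpl or Rps with a number), lay slightly lower in both knockouts. Of 77, 68 were lower in the pool, with a median log2 fold change of -0.13 against -0.00067 over all genes tested. The median was -0.15 in C3 KO and -0.12 in S1pr1 KO, and ran from -0.14 to -0.12 in the pool when each library was left out. No member passed. In 27 of the 77 (35.1%, against 1.94% of all genes) the knockout libraries lay below all WT libraries. Rpl35 of the large subunit was at 175 to 185 CPM in WT and 142 to 165 CPM in the knockouts (-0.21, SE 0.046, edgeR adjusted p = 0.0846). The summed level of the 77 genes was 20724 to 21650 CPM in WT and 17993 to 20597 CPM in the knockouts, without overlap. Among 94 ribosomal protein pseudogenes the median was -0.19, with Rpl21-ps11 called higher and Rps7-ps3 called lower.

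The lists of cell type and pathway genes were described by the number of members on each side and by the median log2 fold change, for which all genes tested gave -0.00067 in the pool, -0.00099 in C3 KO and -0.0011 in S1pr1 KO. In whole lung, fewer cells of a type and less of its RNA per cell cannot be told apart. Over the 32 lists (646 entries, not all tested), 2 members passed the pooled test, against 0.089% of all genes tested. They were H2-T24 of MHC class I and mt-Nd3 of the mitochondrially encoded genes, so the statements below describe values and not calls.

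**Figure D3:**
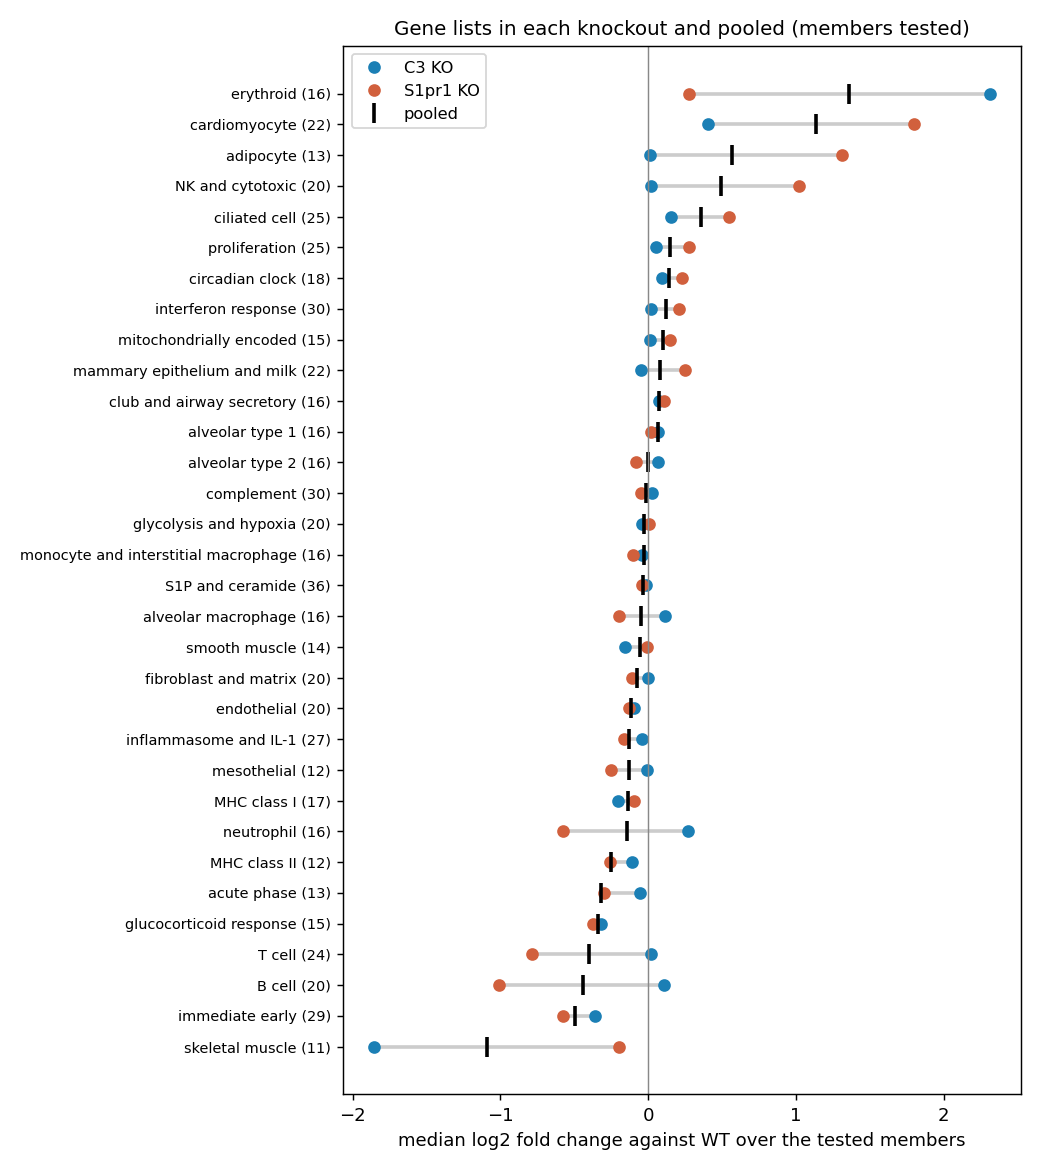
Median log2 fold change against WT of 32 gene lists (rows, tested members in brackets) in C3 KO, in S1pr1 KO and in the pool (black ticks). Some ticks lie between knockouts of opposite sign, as for B cell genes (0.11 and -1.01), whereas both points lie left of 0 for immediate early genes (-0.36 and -0.58).

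Immediate early genes, the transcription factors and signalling genes that respond within minutes to stimulation or handling, were lower in both knockouts. In the pool 28 of 29 were lower, with a median of -0.50 (C3 KO -0.36, S1pr1 KO -0.58). Of the 29, 4 had an unadjusted p under 0.05, as did 15.6% of all genes tested. The mean log2 CPM over the list overlapped between groups, at 6.52 to 7.58 in WT, 5.92 to 7.29 in C3 KO and 5.82 to 7.28 in S1pr1 KO. Klf2, a shear-responsive factor of endothelium, was at 628, 686, 493 and 368 CPM in WT, at 375, 243, 178 and 396 CPM in C3 KO and at 627, 277, 279 and 340 CPM in S1pr1 KO (-0.69, SE 0.26, edgeR adjusted p = 0.239). The groups overlapped. Klf4 (-0.61), Myc (-0.52) and the cell cycle inhibitor Cdkn1a (-0.70) did not pass, and without WT 2 Klf4 was at -0.38 and Myc at -0.27. The C3 KO median of the list was -0.17 without WT 2. Glucocorticoid-responsive genes were likewise lower in both, in 11 of 15 members (pool -0.34, C3 KO -0.32, S1pr1 KO -0.38). Their kinase Sgk1 was at 213 to 245 CPM in WT and 117 to 234 CPM in the knockouts (-0.53, SE 0.12, edgeR adjusted p = 0.0885). The pooled median was -0.047 without WT 3.

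MHC class I genes, which present peptides to CD8 T cells, were lower in 14 of 17 members, with medians of -0.14 in the pool, -0.21 in C3 KO and -0.095 in S1pr1 KO. The pooled median was -0.067 without WT 1, and the C3 KO median -0.11 when the library labelled C3 KO 4 was dropped. MHC class II genes were lower in 10 of 12 (pool -0.25, C3 KO -0.11, S1pr1 KO -0.26). H2-Ab1 was at 364 to 557 CPM in WT and 306 to 438 CPM in the knockouts (-0.31, SE 0.12, edgeR adjusted p = 0.236), and at -0.18 without WT 1. H2-Oa, which modulates peptide loading of class II, was at -0.23 in C3 KO and fell in the S1pr1 KO comparison (-1.07, edgeR adjusted p = 0.022), with a pooled value of -0.65 (edgeR adjusted p = 0.0894). The difference between the knockouts did not pass for it (edgeR adjusted p = 0.129). Without WT 1 the medians of the class II list were -0.11 in the pool and 0.0067 in C3 KO.

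Endothelial genes were lower in 15 of 20 members, with nearly equal medians in C3 KO (-0.099) and S1pr1 KO (-0.13). Gpihbp1 is among them. Plvap, which forms the diaphragms of capillary fenestrae and caveolae, was at 761 to 938 CPM in WT, at 681, 869, 844 and 442 CPM in C3 KO and at 504 to 675 CPM in S1pr1 KO (-0.41, SE 0.15, edgeR adjusted p = 0.215). The lowest C3 KO value was that of the library labelled C3 KO 4, which was also the lowest of all libraries for the endothelial marker Pecam1, at 729 CPM. Without it the C3 KO median of the list was -0.025. The tight junction gene Cldn5 was at -0.28 (edgeR adjusted p = 0.264), and at -0.16 without WT 2.

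Genes of motile cilia were higher in 25 of 25 members in the pool, in 23 in C3 KO and in 25 in S1pr1 KO, with medians of 0.36, 0.16 and 0.55. Rsph4a, of the radial spoke head, was at 15.5, 18, 17.3 and 17.6 CPM in WT, at 21.9, 18.4, 20.2 and 29.3 CPM in C3 KO and at 24.8, 20.9, 25.8 and 33.4 CPM in S1pr1 KO (0.51, SE 0.14, edgeR adjusted p = 0.126). The dynein heavy chain gene Dnah11 was at 0.48 (edgeR adjusted p = 0.130). Mlf1 was at 0.57 in the pool (edgeR adjusted p = 0.0922) and rose in the S1pr1 KO comparison (0.78, edgeR adjusted p = 0.0358). Its C3 KO value was 0.37, and the difference between the knockouts did not pass (edgeR adjusted p = 0.322). The C3 KO median was 0.042 when the library labelled C3 KO 4 was left out.

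Heart muscle genes were higher in 22 of 22 members in the pool, in 20 in C3 KO and in 22 in S1pr1 KO, with medians of 1.14, 0.41 and 1.80. In mice the pulmonary veins carry a sleeve of such muscle into the lung. Ryr2, the calcium release channel of heart muscle, was at 5.87, 16.2, 14.8 and 17 CPM in WT, at 32.3, 14.9, 27.9 and 29.9 CPM in C3 KO and at 23.2, 78.2, 53.9 and 40 CPM in S1pr1 KO (1.41, SE 0.35, edgeR adjusted p = 0.106). It rose in the S1pr1 KO comparison (1.86, edgeR adjusted p = 0.0436), as did the Z-disc gene Myoz2 (1.72, edgeR adjusted p = 0.0464). Their C3 KO values were 0.97 and 0.69, and the difference between the knockouts passed for neither (edgeR adjusted p = 0.379 and 0.307). Hamp, the iron hormone hepcidin, which is also made in heart and was placed in this list, was at 0.866 to 1.98 CPM in WT, at 1.69 to 4.42 CPM in C3 KO and at 6.29 to 9.91 CPM in S1pr1 KO (1.47, SE 0.29, edgeR adjusted p = 0.0652). Without WT 1 the C3 KO median of the list was 0.16.

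**Figure D4:**
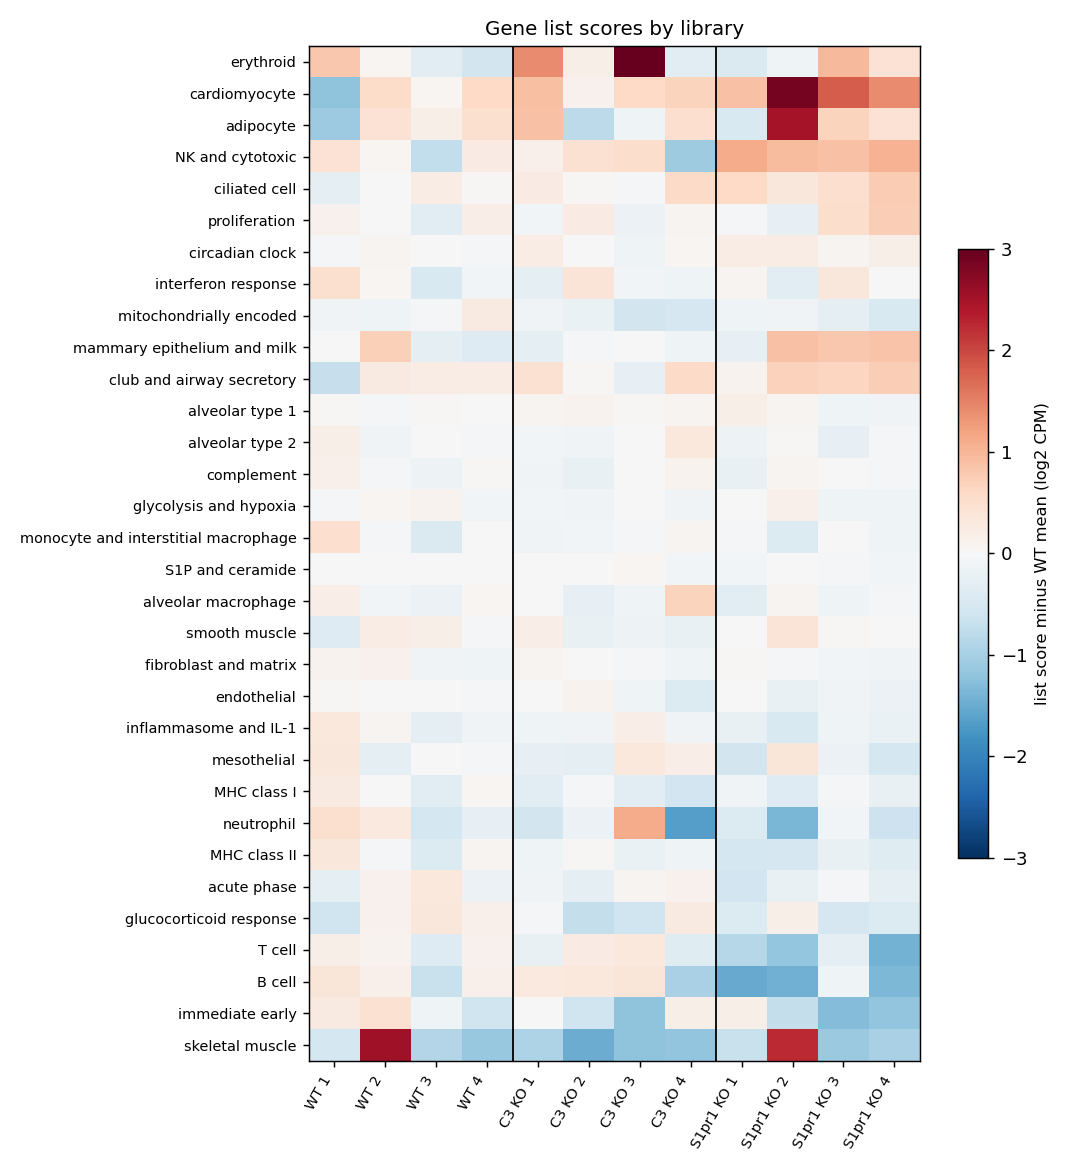
Score of each gene list (mean log2 CPM of its tested members) in each library, minus the WT mean, as a colour whose scale ends at 3 in either direction. Skeletal muscle stands out in WT 2 and S1pr1 KO 2, red cell genes in C3 KO 3, and T and B cell genes are low mainly in the S1pr1 KO columns.

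In lymphocyte genes the S1pr1 KO medians were far from 0. The C3 KO medians were slightly above 0 (0.016 to 0.11), and their sign changed when some single libraries were left out. T cell genes were lower in 24 of 24 members in the pool (median -0.40), in 24 in S1pr1 KO (-0.78) and in 10 in C3 KO (0.022). The C3 KO median was -0.091 without C3 KO 3 and 0.15 when the library labelled C3 KO 4 was dropped. Cd4, the helper T cell coreceptor, was at 9.45, 7.30, 5.24 and 8.17 CPM in WT, at 5.93, 7.41, 7.75 and 9.75 CPM in C3 KO and at 3.58, 3.35, 4.06 and 3.12 CPM in S1pr1 KO. It fell in the S1pr1 KO comparison (-1.10, edgeR adjusted p = 0.0276), was at 0.031 in C3 KO, and the difference between the knockouts did not pass (edgeR adjusted p = 0.0752). Ccr7, a chemokine receptor that draws naive T cells into lymph nodes, was at -0.24 in C3 KO and -1.38 in S1pr1 KO, neither of which passed.

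B cell genes were lower in 20 of 20 members in the pool (-0.44) and in S1pr1 KO (-1.01), and in 3 of 20 in C3 KO (0.11). The pooled median was -0.28 without WT 1, and the C3 KO median was -0.049 without C3 KO 3 and 0.36 when the library labelled C3 KO 4 was dropped. The B cell coactivator Pou2af1 was at 11 to 21.3 CPM in WT, at 18.6, 17.9, 20.9 and 6.93 CPM in C3 KO and at 4.94, 5.76, 13.5 and 5.61 CPM in S1pr1 KO (pool -0.71, edgeR adjusted p = 0.306). The low C3 KO value was that of the library labelled C3 KO 4. Genes of NK and cytotoxic cells went the other way, higher in 17 of 20 in the pool (0.49), in 20 in S1pr1 KO (1.02) and in 11 in C3 KO (0.016). Their pooled median was 0.28 without WT 3, and their C3 KO median was -0.18 without C3 KO 3 and 0.29 when the library labelled C3 KO 4 was dropped. Klra9, an NK receptor of the Ly49 family, was at 0.631 to 1.26 CPM in WT, at 1.27, 2.17, 1.69 and 0.614 CPM in C3 KO and at 3.81 to 4.04 CPM in S1pr1 KO. It rose in the S1pr1 KO comparison (2.15, edgeR adjusted p = 0.0145), as did Klra8 (2.07, edgeR adjusted p = 0.0309), and the pooled values were 1.43 (edgeR adjusted p = 0.0812) and 1.24 (edgeR adjusted p = 0.127). Their C3 KO values were 0.70 and 0.41, and the difference between the knockouts passed for neither (edgeR adjusted p = 0.142 and 0.146). Reads of the Ly49 genes can be shared.

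Neutrophil and alveolar macrophage genes had opposite signs in the knockouts. Neutrophil medians were 0.27 in C3 KO and -0.57 in S1pr1 KO, and the C3 KO value was -0.73 without C3 KO 3. Alveolar macrophage medians were 0.11 and -0.19, and the C3 KO value was -0.15 without the library labelled C3 KO 4. Adipocyte genes were at 0.015 in C3 KO and 1.31 in S1pr1 KO, and the latter was 0.27 without the library labelled S1pr1 KO 2.

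Some of the largest pooled list medians rested on single libraries. Red cell genes were higher in 15 of 16 members (pool 1.36, C3 KO 2.31, S1pr1 KO 0.28). The globin gene Hbb-bt was at 270, 109, 83.7 and 97.1 CPM in WT, at 483, 212, 4556 and 133 CPM in C3 KO and at 100, 156, 311 and 235 CPM in S1pr1 KO (1.89, SE 0.85, edgeR adjusted p = 0.312), and without C3 KO 3 it was at 0.75 and the pooled median of the list at 0.48. Skeletal muscle genes were lower in 10 of 11 members (pool -1.09, C3 KO -1.85, S1pr1 KO -0.20). Acta1, skeletal muscle actin, was at 98.6 CPM in WT 2 and 64.5 CPM in the library labelled S1pr1 KO 2 and at 0.133 to 2.46 CPM in the other 10. Without WT 2 the pooled median was 0.78, and without the library labelled S1pr1 KO 2 it was -1.82.

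The pathways of the targeted genes had medians near 0 in the pool. Of 30 tested complement genes 13 were higher and 17 lower. The medians were -0.017 in the pool, 0.026 in C3 KO and -0.049 in S1pr1 KO. None passed, but only 0.089% of all genes tested did, so the lack of calls says little about this list. The pooled median was 0.034 without WT 1, and the C3 KO median -0.15 when the library labelled C3 KO 4 was dropped. C7, of the membrane attack complex, was at 283 to 297 CPM in WT and 245 to 292 CPM in the knockouts (-0.12, SE 0.050, edgeR adjusted p = 0.287). Masp1, a protease of the lectin pathway, was at -0.40 (edgeR adjusted p = 0.302), and at -0.16 without WT 4. The anaphylatoxin receptors C3ar1 (0.13, SE 0.19) and C5ar1 (-0.087, SE 0.19) were near 0, with edgeR adjusted p = 0.780 and 0.862.

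Of 36 genes of sphingosine-1-phosphate and ceramide metabolism and signalling 14 were higher and 22 lower in the pool. The medians were -0.037 in the pool, -0.013 in C3 KO and -0.042 in S1pr1 KO. Lower members numbered 19 in C3 KO and 26 in S1pr1 KO, where 1 was called, against 1.35% of all genes tested. Ugcg, glucosylceramide synthase, was at 55.9 to 69.4 CPM in WT and 46.3 to 60.5 CPM in the knockouts (-0.21, SE 0.079, edgeR adjusted p = 0.232). The ceramide synthase gene Cers2 was at -0.11 (SE 0.049, edgeR adjusted p = 0.303).

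Genes of the inflammasome and of interleukin-1 signalling were lower in 22 of 27 members (pool -0.13, C3 KO -0.044, S1pr1 KO -0.16), and without WT 1 the pooled median was 0.0093. Il1b was at 155, 79.6, 48.6 and 32.1 CPM in WT, at 57.8, 36.5, 67.2 and 24.1 CPM in C3 KO and at 58.1, 7.28, 38.5 and 29 CPM in S1pr1 KO (-1.0, SE 0.48, edgeR adjusted p = 0.336). The spread within WT was as wide as the difference, and the value was -0.44 without WT 1. Il1a was at -0.41 (edgeR adjusted p = 0.246), the sensor Nlrp3 at -0.11 (edgeR adjusted p = 0.855) and the ATP receptor P2rx7, in the other direction, at 0.29 (SE 0.080, edgeR adjusted p = 0.130).

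Markers of mammary epithelium and milk, which tumour deposits from the mammary gland could carry, were higher in 13 of 22 members in the pool (0.082), in 8 in C3 KO (-0.049) and in 18 in S1pr1 KO (0.25). The pooled median was 0.15 without WT 1 and 0.042 when the library labelled C3 KO 4 was dropped. The progesterone receptor gene Pgr was at 5.94, 5.82, 5.86 and 4.31 CPM in WT and 6.06 to 10.6 CPM in the knockouts, without overlap (0.50, SE 0.17, edgeR adjusted p = 0.202). Basal keratin Krt14 was at 12 CPM in WT 2 and at 0.111 to 3.82 CPM in the other 11 libraries. The milk protein gene Csn2 was below 1 CPM throughout (1.90, SE 0.88, edgeR adjusted p = 0.321), and 1.18 without C3 KO 3. Proliferation genes were higher in 22 of 25 members (pool 0.15, C3 KO 0.055, S1pr1 KO 0.27). Of these members 0 had an unadjusted p under 0.05, against 15.6% of all genes tested. Without WT 3 their medians were 0.069 in the pool and -0.058 in C3 KO. The parts that these cells or libraries play in the called genes were not tested.

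The remaining lists had pooled medians between -0.32 and 0.14. Acute phase genes were at -0.32 (C3 KO -0.058, S1pr1 KO -0.30), circadian clock genes at 0.14 (0.092 and 0.23) and interferon response genes at 0.12 (0.017 and 0.21). Alveolar type 1 genes were at 0.065 (0.065 and 0.017), alveolar type 2 genes at -0.0015 (0.069 and -0.085) and club cell genes at 0.075 (0.071 and 0.10). Mesothelial genes were at -0.13 (-0.0051 and -0.25), fibroblast genes at -0.078 (-0.0042 and -0.11), smooth muscle genes at -0.055 (-0.16 and -0.0080), monocyte and interstitial macrophage genes at -0.029 (-0.039 and -0.10) and glycolysis genes at -0.025 (-0.039 and 0.0034). In each bracket C3 KO is given before S1pr1 KO. Medians this small moved with single libraries. Without WT 3 the pooled median was 0.13 for acute phase, 0.028 for interferon response and 0.011 for glycolysis genes. Without WT 1 it was 0.046 for circadian clock, 0.040 for mesothelial, 0.088 for alveolar type 2 and 0.13 for monocyte and interstitial macrophage genes. Without WT 2 it was 0.0089 for fibroblast and 0.0052 for smooth muscle genes. For club cell genes it was 0.022 when the library labelled C3 KO 4 was dropped. Pooled medians of the alveolar type 1, alveolar type 2, club cell, fibroblast and smooth muscle lists lay between -0.078 and 0.075. A list median near 0 does not exclude members that moved in opposite directions.

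By position, 4 of the 18 called genes lay on chromosome 17 (Gm50022, Grm4, H2-T24 and Gm7334), which held 1009 of the 20229 genes tested. On that chromosome 25 genes (2.48%) had an unadjusted p under 0.001, against 1.08% of all genes, and 2.28% had knockout libraries outside the WT range, against 1.94%. Of the 25, 18 started between 20 and 40 Mb, a span chosen after seeing the values that holds 515 of the 1009 genes, and 3 called genes (Gm50022, Grm4 and H2-T24) were among them. In that span 7 of the 18 were higher and 11 lower in the knockouts. C3 itself lies on chromosome 17 and S1pr1 on chromosome 3. Within 10 Mb of C3, 1 of 148 genes was called (Gm7334). Its 756 bases are identical to Btg3, so reads of the 2 may not have been told apart. Within 10 Mb of S1pr1, 0 of 155 were called. Over all genes tested the share called was 0.089%. At an unadjusted p under 0.001 there were 2 genes (1.35%) near C3 and 1 (0.645%) near S1pr1, against 1.08% of all genes.

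**Figure D5:**
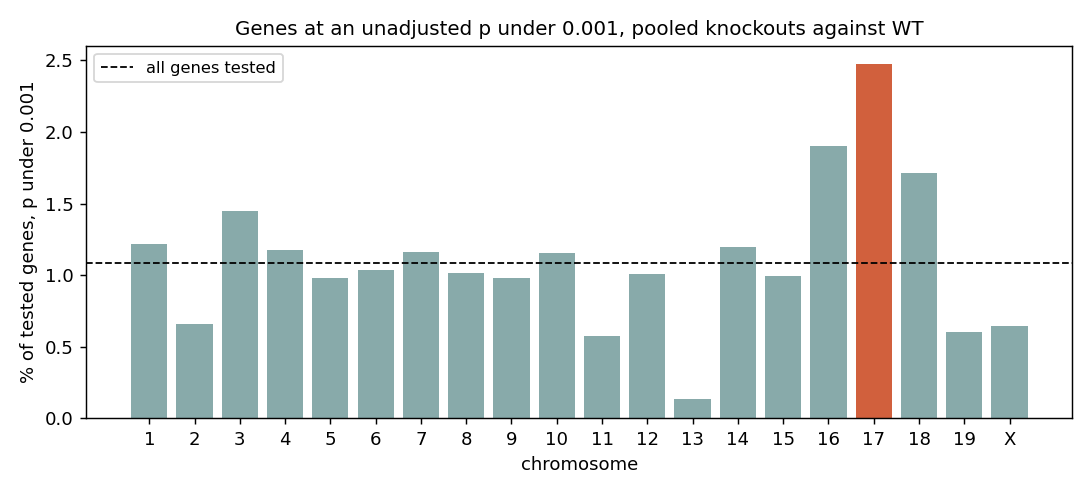
Share of the genes tested on each chromosome with an unadjusted p under 0.001 for the pooled knockouts against WT, with the share over all genes (1.08%) as a dashed line. Chromosome 17, in orange, has the highest bar at 2.48%, and chromosome 13 the lowest at 0.132%. The mitochondrial genome is not drawn.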

How the data were processed

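RNA was sequenced from 12 whole-lung samples. Whole-number read counts for 56748 genes were deposited, and CASAVA, STAR, GRCm39 and mm39 are named per the submitters' processing notes. For the counting tool, its strand setting and the annotation release, the answer is not given in the sources used here. The deposited FPKM values served an alternative only.

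The test was edgeR 4.0.16 (R 4.3.3) with filterByExpr, TMM scaling and a quasi-likelihood fit of 3 group means (9 residual degrees of freedom). The pooled value is the average of the 2 knockout means minus WT, so each knockout weighs the same. Benjamini-Hochberg adjustment ran over 20229 genes, with a threshold of 0.05. A fold change is log2, with an SE back-calculated from the F statistic. A shared gene passed in the pool and had an unadjusted p under 0.05 the same way in each knockout. The rule for named genes took called protein-coding genes of at least 1 CPM (up to 15 a direction), up to 6 other called genes, up to 3 members of lowest p from each list, and C3, S1pr1, C3ar1, C5ar1, Nlrp3 and Il1b. Only part of those from lists are given. The comparison, the 32 lists (646 entries) and the rules were chosen with earlier results of these data known, and the ribosomal protein genes, their pseudogenes and the copies of called genes after their values were seen.

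Copies were sought by aligning the GENCODE vM21 transcripts of the 18 called genes, matched by gene ID (18 of 18), with blastn; coordinates are those of the deposited table. The model was run on counts simulated with its own spread estimates and equal changes in both knockouts. Outlying libraries were not simulated, so that run does not show how they affect the calls. Alternatives were DESeq2 1.42.0, voom with quality weights in limma 3.58.1, limma on log2(FPKM + 0.1) or log2(FPKM + 1) where 4 libraries reached 0.5 FPKM, upper-quartile or RLE scaling, a fit of 2 means, a robust fit, a filter of 1 CPM in 4 libraries or none, and leaving libraries out. Depth ranged from 32274797 to 53063470 counts. No pair of libraries in a group differed by as little as sampling noise (chi-square per degree of freedom at least 12.4). No batch or date stands in the labels.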

Additional observations from a re-analysis of the deposited data

Results flagged for a closer look

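In groups of 4 libraries, 282 sets of values were examined for a library far from its group (Dixon's ratio of its gap to the group's range), which chance gives in about 1 in 20 sets, and 37 stood out. Among the called genes these were H2-T24 at 88.3 CPM and Rpl21-ps11 at 0.234 CPM in WT 1, Wdr95 at 4.51 and Wdfy1 at 49.5 CPM in S1pr1 KO 1, Rpl21-ps11 at 0.93 CPM in S1pr1 KO 3 and, in the library labelled C3 KO 4, Gm50022 at 0.179 CPM. WT 2 stood apart in Krt13 (632 CPM), Krt4 (626 CPM), Myh1 (55 CPM), Krt14 (12 CPM), Acta1 (98.6 CPM) and the skeletal muscle score (4.65). Scores are mean log2 CPM over a list.

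WT 1 stood apart in Hamp (0.866 CPM), Mlf1 (6.55 CPM), Hbb-bt (270 CPM) and the club cell score (6.71), WT 3 in the T cell score (2.44) and WT 4 in Pgr (4.31 CPM). In C3 KO, library 1 stood apart in the smooth muscle score (5.86), library 2 in Pgr (10.1 CPM), library 3 in Hbb-bt (4556 CPM), Hbb-bs (10399 CPM), Nlrp3 (16.2 CPM) and the inflammasome score (4.19), and the library labelled C3 KO 4 in C3 (1416 CPM) and the B cell score (3.4). In S1pr1 KO, library 1 stood apart in the club cell score (7.5) and the mammary score (2.35). The library labelled S1pr1 KO 2 stood apart in S1pr1 (366 CPM), Myh1 (28.2 CPM), Acta1 (64.5 CPM) and the scores for smooth muscle (6.05), skeletal muscle (4.35) and glucocorticoid response (7.39). Library 3 stood apart in Pou2af1 (13.5 CPM), Krt14 (3.82 CPM) and the B cell score (4.25).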

How the results depend on the processing

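The count of pooled calls was 18, and all 18 were shared, with an unadjusted p under 0.05 the same way in each knockout. With other settings the counts (shared calls in brackets) were 10 (10) with upper-quartile scaling, 60 (55) with no filter, 10 (10) with a filter of 1 CPM in 4 libraries, 710 (554) with DESeq2, 121 (116) with limma voom and quality weights, 11 with log2(FPKM + 1) and 9 with 2 means. They were 93 (88) without both libraries labelled C3 KO 4 and S1pr1 KO 2, and 5 (4) without WT 2, C3 KO 3 and S1pr1 KO 2, a setting chosen after seeing the data. Leaving out each library gave 2 to 104 calls, of which 2 to 96 were shared. Asking for an adjusted p under 0.05 in each knockout left 2. RLE scaling (15), a robust fit (21) and log2(FPKM + 0.1) (13) stayed within 1.5 times. Pooled calls that differed between the knockouts numbered 0, but 3 with no filter, 71 with DESeq2, 5 with voom, 1 without both of those libraries and 0 to 6 leaving out each library. The cause of these changes was not tested. The 18 genes kept their direction in every one of the 24 settings in which they were tested. Leaving out each library gave -5.24 to 1.46 for Myh1, a skeletal muscle myosin, -2.60 to 1.04 for Krt14 and -5.90 to 1.13 for Acta1, positive in the fit without WT 2, and Krt14 was 1.28 without WT 2, C3 KO 3 and S1pr1 KO 2. It gave -0.27 to 0.020 for Nlrp3 and -0.22 to 0.043 for C5ar1, positive in the fit without WT 1, and Nlrp3 was 0.0030 without both libraries labelled C3 KO 4 and S1pr1 KO 2. No paired analysis was possible because the labels give no replicate number that groups share.

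With 4 WT libraries in every contrast, leaving out 1 of them left 2 to 5 calls, and calls below 1 CPM rested on few reads.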
